A study of Mus musculus with 6 samples.

Results

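The genes described are glutathione S-transferases (Gst), UDP-glucuronosyltransferases (Ugt) and sulfotransferases (Sult), the main conjugating enzymes of phase II drug metabolism. They were chosen by symbol from the table of gene counts: names beginning with Gsta, Gstk, Gstm, Gsto, Gstp, Gstt or Gstz, with Ugt1a, Ugt2a, Ugt2b or Ugt3a, or with Sult, each followed by a number, and without pseudogenes ending in -ps. This gave 57 of the 17119 symbols, namely 22 Gst, 18 Ugt and 17 Sult genes. Of these, 42 had enough counts to be tested, among 12706 tested genes.

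The libraries came from whole mouse liver, 3 from heterozygous animals (Clec4f-iCre;Cebpb fl/+) and 3 from wild-type littermates (Clec4f-iCre;Cebpb+/+). Every animal carried the Cre and ate a diet rich in fat and cholesterol (HFHCD) over 12 weeks, so no library shows liver on a plain diet or without Cre. Clec4f marks Kupffer cells, the macrophages that reside in liver, and the floxed allele is lost on 1 chromosome only. The comparison therefore asks how liver RNA differs when Kupffer cells carry 1 rather than 2 alleles of Cebpb, which encodes the transcription factor C/EBPβ. The labels give no sex or age and do not say that each library is a separate animal. The p-values therefore cover the spread between these libraries, which may be technical. The genotype labels of replicates 2 and 3 write the driver as Clec5f and Clec6f, against Clec4f in the series design, which was followed.

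Phase II enzymes attach a water-soluble group to drugs, hormones, bile pigments or reactive lipids. Glutathione S-transferases join glutathione to electrophiles, UDP-glucuronosyltransferases in the endoplasmic reticulum transfer glucuronic acid from UDP-glucuronate, and sulfotransferases in the cytosol transfer sulfonate from the donor PAPS. In liver they are expressed mostly by hepatocytes, the cell type that the Cre driver is not meant to reach.

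Libraries held 16895322 to 17149924 counts in the heterozygous group and 17665622 to 17750755 counts in the wild-type group. Cebpb had 204, 498 and 269 counts scaled to library size (CPM) in heterozygous livers, against 506, 308 and 340.4 CPM in wild-type livers. These groups overlapped, and the log2 fold change was −0.25 ± 0.37 (edgeR, adjusted p = 0.864), so whole-liver RNA did not separate the groups by the targeted gene, which many liver cells express. Clec4f had 4.31, 4.97 and 3.90 CPM in heterozygous livers and 48.6, 38.5 and 5.42 CPM in wild-type livers, with wild-type library 3 close to the heterozygous ones (adjusted p = 0.260 by edgeR). Summed over 10 macrophage and monocyte markers, expression was 262 to 288 CPM in heterozygous livers and 538 to 1002 CPM in wild-type livers, and Ccr2, Lyz2 and Cd68 fell (edgeR, adjusted p = 0.0308, 0.0336 and 0.0445). In bulk liver, fewer cells of a type and less RNA per cell cannot be told apart. Hepatocyte markers (6 genes, among them Alb and Ttr) summed to 103100 to 127900 CPM in heterozygous livers and to 92570 to 130300 CPM in wild-type livers, which overlap. Most of this sum was Alb, at 72610 to 95210 CPM in heterozygous and 66250 to 92070 CPM in wild-type livers. Of the 6 markers, 3 had positive and 3 negative log2 fold changes. Ddx3y, a Y-linked gene, had 459 to 612 counts in heterozygous libraries and 480 to 544 counts in wild-type libraries.

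Several members have near-identical copies in the genome, which limits what a read count can say about them. The aligned coding sequences of 7 pairs were at least 95% identical: Gstp1 and Gstp2 at 98.1%, Gsta1 and Gsta2 at 97.6%, Ugt2b5 and Ugt2b38 at 97.0%, Ugt1a6b with Ugt1a6a and with Ugt1a7c at 98.4%, Ugt1a9 and Ugt1a10 at 95.4%, and Ugt1a6a and Ugt1a7c with no difference. For the last pair the annotation used here (GENCODE M21) gives Ugt1a7c a transcript with the coding sequence of Ugt1a6a. The stretches below show 3 of these pairs over 90 coding bases each, 5′ to 3′, from GENCODE M21 on build GRCm38, with the bases that differ in capitals. They are shown because, within the coding sequence, these copies can be told apart only by such scattered differences. The stretches are richer in differences than the whole coding sequences and so are not typical of them. They hold 6 of 12 differences for Gstp1 and Gstp2, 5 of 16 for Gsta1 and Gsta2, and 10 of 47 for Ugt2b5 and Ugt2b38. The totals count gaps in the alignment, while the stretches hold none. The share of counts that rests on coding differences was not tested.
Gstp1, chromosome 19, coding bases 1 to 90: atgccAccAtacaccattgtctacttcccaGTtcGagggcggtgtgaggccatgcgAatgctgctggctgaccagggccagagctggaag
Gstp2, chromosome 19, coding bases 1 to 90: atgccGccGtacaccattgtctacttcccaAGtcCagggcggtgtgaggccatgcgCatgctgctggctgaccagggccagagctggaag
Gsta1, chromosome 9, coding bases 419 to 508: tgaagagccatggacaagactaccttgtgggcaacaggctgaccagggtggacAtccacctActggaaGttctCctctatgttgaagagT
Gsta2, chromosome 9, coding bases 419 to 508: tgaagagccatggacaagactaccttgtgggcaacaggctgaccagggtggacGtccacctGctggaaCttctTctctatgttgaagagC
Ugt2b5, chromosome 5, coding bases 1422 to 1511: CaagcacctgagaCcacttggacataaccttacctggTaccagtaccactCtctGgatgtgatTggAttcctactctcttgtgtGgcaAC
Ugt2b38, chromosome 5, coding bases 1422 to 1511: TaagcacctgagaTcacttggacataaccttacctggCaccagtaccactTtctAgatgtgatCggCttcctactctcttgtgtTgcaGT

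Over the whole coding sequence, Gstp1 and Gstp2 differ at 12 of 630 bases, Gsta1 and Gsta2 at 16 aligned positions, and Ugt2b5 and Ugt2b38 at 47 of 1590 bases. The 16 positions include gaps, as Gsta1 has 669 coding bases and Gsta2 666. Of all 57 members, 30 had no 100-base transcript window shared with another gene, and 36 were unique in at least 95% of windows. Fewer than 50% of windows were unique for 11 members. Among them were Gsta1 at 18.2%, Gstp1 at 47.2% and Gstp2 at 36.5%, and the Ugt1a genes at 0.0% to 42.8%. Gsta1 and Gsta2 shared windows with each other and also with Gm3776 and Gm10639, which are not members. The Ugt1a genes of chromosome 1 share their last exons, each having a first exon of its own. The pseudogene Gstp-ps, which the rule leaves out, took 314, 311 and 239 CPM in heterozygous livers and 342, 209 and 256 CPM in wild-type livers, so part of the Gstp1 signal may be counted there or the reverse.

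Together the 57 genes took 1.30%, 1.09% and 1.26% of counts in heterozygous livers, against 0.976%, 1.12% and 1.18% in wild-type livers. The means were 1.22% ± 0.111 and 1.09% ± 0.104 (SD, n = 3 each), and the groups overlapped because heterozygous library 2 lay below wild-type libraries 2 and 3. Glutathione S-transferases took 0.774% ± 0.0771 of counts in heterozygous and 0.707% ± 0.0826 in wild-type livers, glucuronosyltransferases 0.356% ± 0.0372 and 0.305% ± 0.0564, and sulfotransferases 0.0868% ± 0.0063 and 0.0794% ± 0.0085. Within them the Gstm family was the largest, at 0.362% in heterozygous and 0.334% in wild-type livers, followed by Ugt2b at 0.258% and 0.213%.

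**Figure D1:**
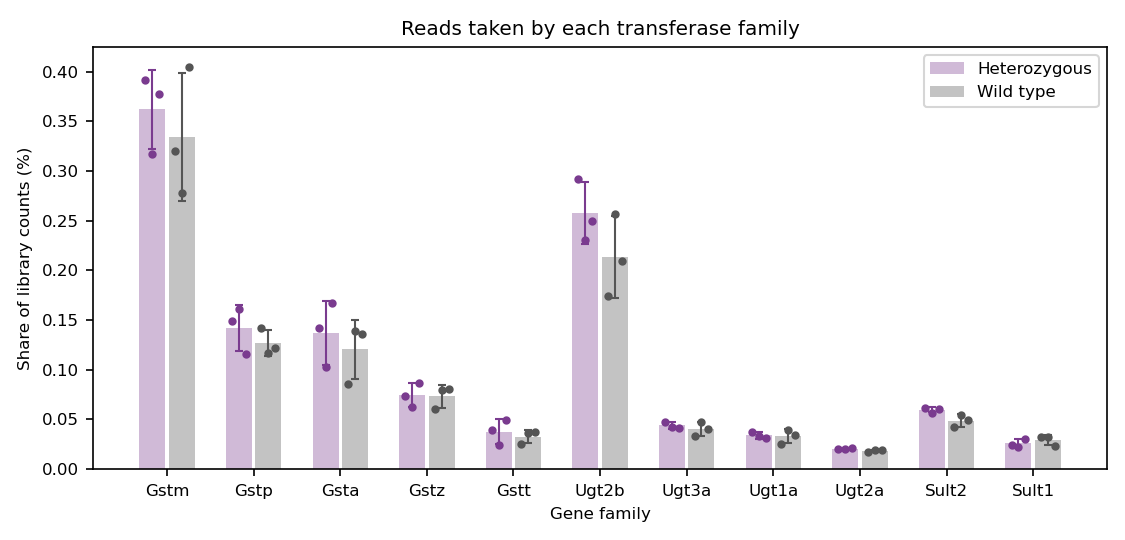
Share of each library's counts (percent, vertical axis) taken by the larger families, heterozygous left of wild-type livers; bars are means, whiskers are SD (n = 3) and points are libraries. Gstm is the largest family, with 0.362% in heterozygous and 0.334% in wild-type livers, and Ugt2b is next with 0.258% and 0.213%.

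Counts were also divided by kilobases of exon, with all annotated exons of a gene merged. This length can exceed that of the expressed transcript and so lower the value. Gsta3 had 4.344 kb for 663 coding bases, and Ugt2b5 had 1.858 kb for 1590 coding bases. The order between genes is therefore approximate. On this scale Gstm1 was the highest of the members named, at 2232 CPM per kb in heterozygous and 2070 CPM per kb in wild-type livers. Gstp1 came next with 908 and 813 CPM per kb, and then Ugt2b5 with 404 and 319 CPM per kb. Ugt2b36 had 316 and 268 CPM per kb and Gsta3 286 and 252 CPM per kb. Among sulfotransferases Sult2a8 was highest, with 181 and 148 CPM per kb.

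None of the 42 tested members passed edgeR's quasi-likelihood test at an adjusted p of 0.05, in either direction, while 0.582% of all tested genes (74) did: 0.0236% (3 genes) were higher and 0.559% (71) lower in heterozygous livers. DESeq2 called none of the 42 either, against 4.0% of genes, and limma-voom none. At an unadjusted p under 0.05 there were 4 members (Sult1c2, Ugt2b35, Sult2a8 and Ugt2b5), which is 9.52% of those tested, against 13.2% of all genes. All 4 had higher values in heterozygous livers, a direction that 4.2% of all genes combined with such a p. In 5 members (Gsto1, Sult1c2, Sult2a8, Ugt2a3 and Ugt2b5) every heterozygous library was above every wild-type library, 11.9% of members beside 7.05% of all genes. In no member was every heterozygous library below every wild-type library, a pattern seen in 11.3% of all genes.

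The fitted differences were small and mostly above 0. The log2 fold change, heterozygous over wild-type livers, was positive for 32 of 42 members, with a median of 0.14, beside a median of 0.0048 over all tested genes, of which 51.0% were positive. By superfamily, 16 of 20 Gst genes were positive (median 0.13), 14 of 15 Ugt genes (median 0.17) and 2 of 7 Sult genes (median −0.04). All 7 Ugt2b genes were positive (median 0.24), and so were all 4 Gsta genes (median 0.20). Close copies can share reads, so members are not independent, and these counts are a description and carry no test. Standard errors had a median of 0.19, and 30 of the 42 intervals at 95% lay within a doubling or halving, while 12 reached past it.

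**Figure D2:**
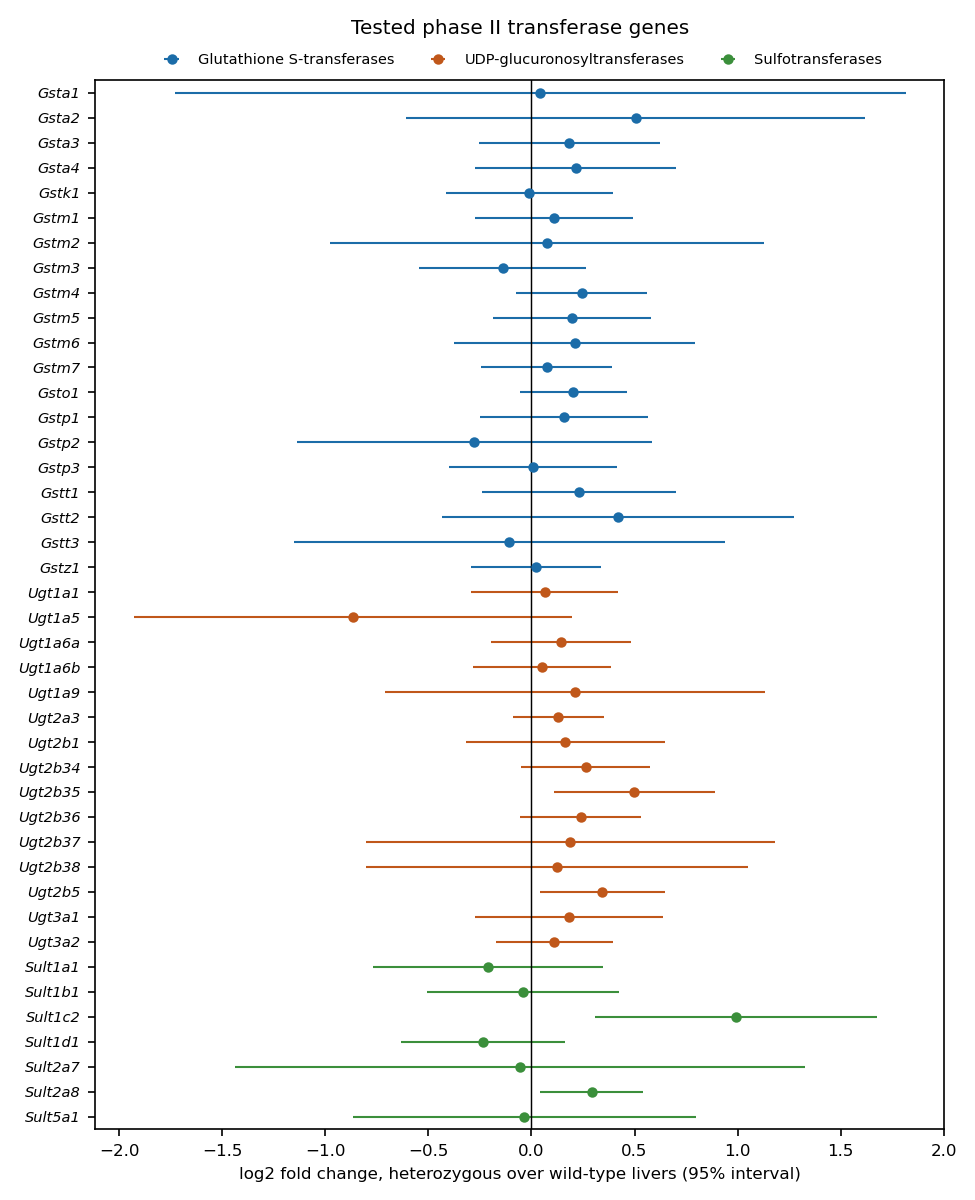
Log2 fold change of heterozygous over wild-type livers (horizontal axis) for the 42 tested members, with 95% intervals from edgeR, coloured by superfamily. Most points lie slightly right of 0, all but 4 intervals span 0, and the widest belongs to the close copy Gsta1.

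Among glutathione S-transferases the abundant liver enzymes did not separate the groups. Gstm1, a mu-class enzyme that conjugates a broad range of electrophiles, had 3567, 2994 and 3300 CPM in heterozygous livers and 3196, 2356 and 3596 CPM in wild-type livers. The groups overlapped, with a log2 fold change of 0.11 ± 0.17 (95% interval −0.28 to 0.49; edgeR, adjusted p = 0.873). Gstp1, the pi-class enzyme, had 1472, 1631 and 1113 CPM in heterozygous livers and 1518, 1102 and 1158 CPM in wild-type livers, again without separation (0.16 ± 0.18; adjusted p = 0.803 by edgeR). Its copy Gstp2 was read at 3.27 to 7.34 CPM in heterozygous and 4.49 to 10.1 CPM in wild-type livers. Added together, Gstp1 and Gstp2 gave a log2 fold change of 0.16 (edgeR, adjusted p = 0.805), which is that of Gstp1 alone because Gstp2 adds few counts.

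The alpha class holds Gsta3, which in mice detoxifies the epoxide of aflatoxin, and Gsta4, which conjugates the lipid peroxidation product 4-hydroxynonenal. Gsta3 had 1277, 979 and 1467 CPM in heterozygous livers and 841, 1242 and 1195 CPM in wild-type livers. Wild-type library 1 was lowest and heterozygous library 3 highest, with heterozygous library 2 below wild-type libraries 2 and 3 (log2 fold change 0.18 ± 0.19; edgeR, adjusted p = 0.784). Gsta2 had the same lowest and highest libraries over a wider range, with 45.8, 21.1 and 64.9 CPM in heterozygous livers and 20.9, 34.1 and 37.9 CPM in wild-type livers. Its difference of 0.51 ± 0.45 on the log2 scale was close to its error (edgeR, adjusted p = 0.739), and it was 0.11 without heterozygous library 3 and 0.84 without heterozygous library 2. Gsta1 ranged over 5.25-fold among libraries, the widest of the 42 tested members, with 3.76 to 14.9 CPM in heterozygous and 2.83 to 14.0 CPM in wild-type livers. Summing Gsta1 and Gsta2 gave 0.42 ± 0.42 (edgeR, adjusted p = 0.777). The sum leaves out Gm3776 and Gm10639, with which both share transcript windows, so it does not settle the sharing of reads.

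Of the theta class, Gstt1, which acts on small halogenated molecules, had 304, 204 and 376 CPM in heterozygous livers and 225, 256 and 272 CPM in wild-type livers. Gstt2 had 43.2, 20.3 and 43.6 CPM in heterozygous livers and 18.0, 31.0 and 31.1 CPM in wild-type livers. In both genes heterozygous library 2 lay among or below the wild-type libraries, and the differences of 0.23 ± 0.21 and 0.42 ± 0.35 on the log2 scale did not pass (edgeR, adjusted p = 0.731 and 0.722). For Gstt1 the log2 fold change was 0.020 without heterozygous library 3 and 0.44 without heterozygous library 2, and for Gstt2 it lay between 0.22 and 0.70 when single libraries were left out.

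The smallest p-values among glutathione S-transferases belonged to Gsto1 and Gstm4. Gsto1, an omega-class enzyme that reduces dehydroascorbate and glutathionylated thiols, had 107, 91.7 and 92.8 CPM in heterozygous livers, against 86.3, 76.1 and 90.4 CPM in wild-type livers. Its groups did not overlap, but by a margin of little over 1 CPM (0.20 ± 0.11; edgeR, adjusted p = 0.521). Gstm4 had 104, 75.0 and 94.7 CPM in heterozygous livers and 70.0, 76.9 and 84.2 CPM in wild-type livers (0.24 ± 0.14; edgeR, adjusted p = 0.533). Gstm5 was low, at 7.40 to 8.32 CPM in heterozygous and 6.42 to 7.87 CPM in wild-type livers. Gstz1, the maleylacetoacetate isomerase of tyrosine breakdown, averaged 741 CPM in heterozygous and 730 CPM in wild-type livers, a log2 fold change of 0.02 ± 0.14 (edgeR, adjusted p = 0.979). The remaining tested Gst genes (Gsta4, Gstk1, Gstm2, Gstm3, Gstm6, Gstm7, Gstp3 and Gstt3) had log2 fold changes of −0.14 to 0.22.

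Much of the spread of these enzymes lay between libraries of 1 genotype. Each library was set against the mean of all 6 for every gene, as log2(CPM + 0.5). Over the 14 tested Gsta, Gstm and Gstt genes the median deviation was 0.18, −0.39 and 0.42 in heterozygous libraries 1 to 3 and −0.28, −0.05 and 0.07 in wild-type libraries 1 to 3. Heterozygous library 3 was the highest of the 6 for 13 of 20 Gst genes, compared with 15.8% of all genes, and heterozygous library 2 was the lowest for 9 of 20, compared with 17.2% of all genes. The median log2 fold change of the Gst genes was 0.01 without heterozygous library 3 and 0.22 without heterozygous library 2, against 0.13 with all libraries. The 15 acute phase genes, made by hepatocytes in inflammation, had mean log2 CPM values of 8.67, 9.32 and 8.72 in heterozygous libraries 1 to 3 and 10.85, 9.18 and 9.58 in wild-type libraries 1 to 3. Cfd, the only adipose marker tested of 4 listed, gave a list sum of 235, 25.1 and 307 CPM in heterozygous livers and 80.6, 418 and 134 CPM in wild-type livers. In each group the library lowest in the Gsta, Gstm and Gstt genes also had the highest acute phase value and the lowest adipose sum. That sum is nearly all Cfd, and the other adipose markers with counts did not follow it. Adipoq had 0, 11 and 3 counts in heterozygous libraries 1 to 3 and 0, 3 and 0 in wild-type libraries 1 to 3. Plin1 had 4 counts, all in heterozygous library 2. The part of acute phase and adipose RNA in the Gst values was not tested.

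**Figure D3:**
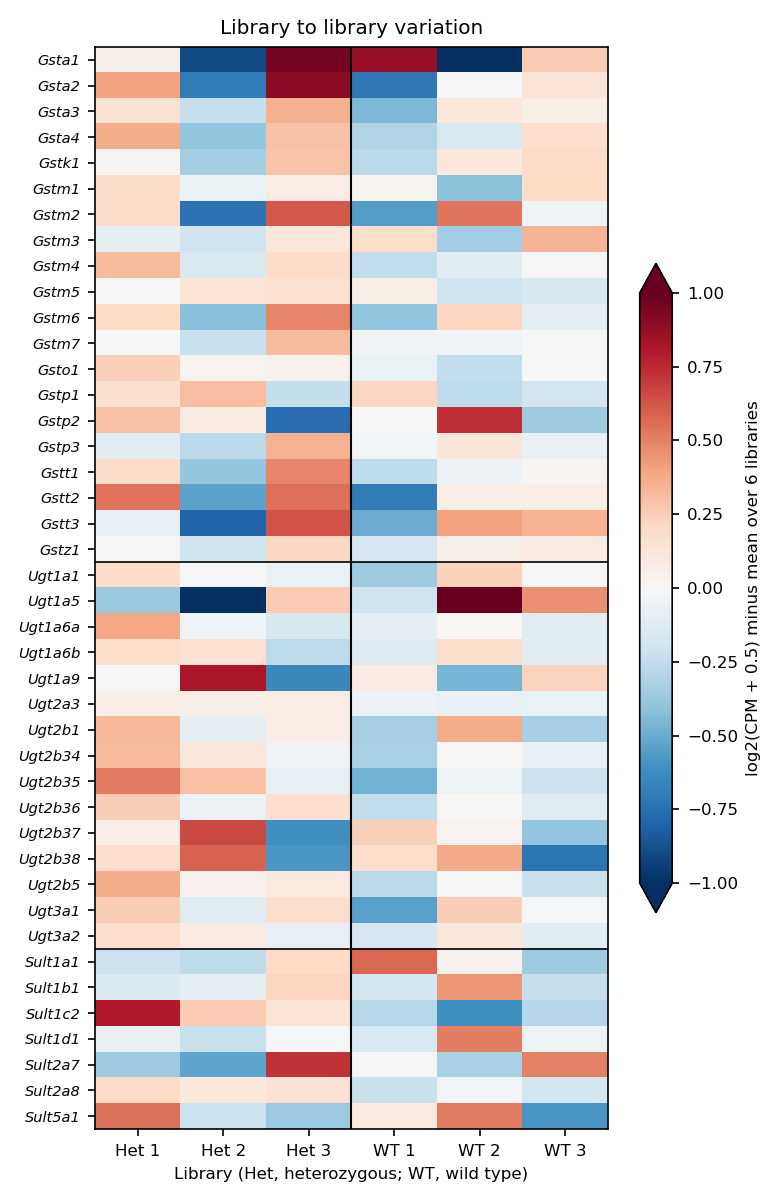
Deviation of each tested member from its mean over the 6 libraries (log2, colour), with members as rows grouped by superfamily and libraries as columns, heterozygous left of wild-type. Many Gst rows share high values in heterozygous library 3 and low values in heterozygous library 2, while many Ugt rows are lowest in wild-type library 1.

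Glucuronosyltransferases differed from this in which libraries stood out. Wild-type library 1 was lowest for 8 of 15 Ugt genes, compared with 24.7% of all genes, and heterozygous library 1 was highest for 8 of 15, compared with 16.5% of all genes. The median deviation of the Ugt genes was 0.18, 0.06 and −0.06 in heterozygous libraries and −0.20, 0.03 and −0.11 in wild-type libraries, lowest in wild-type library 1, which had the highest acute phase value. Without that library the median log2 fold change of the Ugt genes was 0.15, against 0.17 with it.

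The Ugt2b genes of chromosome 5, whose products conjugate steroids, bile acids and many drugs, had the highest Ugt levels. Ugt2b5 had 858, 685 and 709 CPM in heterozygous livers, all above the 550.4, 657 and 569 CPM of wild-type livers. The log2 fold change was 0.34 ± 0.13 (1.27-fold; unadjusted p = 0.0310, adjusted p = 0.306 by edgeR), and with its copy Ugt2b38 added it was the same (0.34 ± 0.13; adjusted p = 0.314 by edgeR). Ugt2b38 itself was read at only 8.03 to 18.8 CPM in heterozygous and 7.22 to 16.1 CPM in wild-type livers.

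Ugt2b35 had 251, 217 and 166 CPM in heterozygous livers and 127, 170.1 and 152 CPM in wild-type livers, where heterozygous library 3 lay just below wild-type library 2. Its log2 fold change of 0.50 ± 0.17 (1.41-fold; unadjusted p = 0.0176, adjusted p = 0.235 by edgeR) was the most positive among glucuronosyltransferases. The abundant Ugt2b36 had 708, 573 and 670 CPM in heterozygous livers and 502, 602 and 550 CPM in wild-type livers (0.24 ± 0.13; edgeR, adjusted p = 0.498). Ugt2b34 had 470, 408 and 369 CPM in heterozygous livers and 301, 381 and 357 CPM in wild-type livers (0.26 ± 0.14; edgeR, adjusted p = 0.485). In both genes the groups overlapped. Ugt2b1 had 615, 458 and 517 CPM in heterozygous livers and 390, 637 and 390 CPM in wild-type livers, the highest value thus being a wild-type one (0.17 ± 0.21; edgeR, adjusted p = 0.830). Its log2 fold change was 0.45 without wild-type library 2 and 0.044 without wild-type library 3.

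Ugt2a3 was the steadiest of the members, with 203, 202 and 204 CPM in heterozygous livers and 187, 184 and 186 CPM in wild-type livers. Its groups did not overlap and its highest library was 1.11-fold its lowest. The difference of 0.13 ± 0.10 (95% interval −0.09 to 0.35) did not pass edgeR, which shares its estimate of spread across genes (unadjusted p = 0.215, adjusted p = 0.664).

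**Figure D4:**
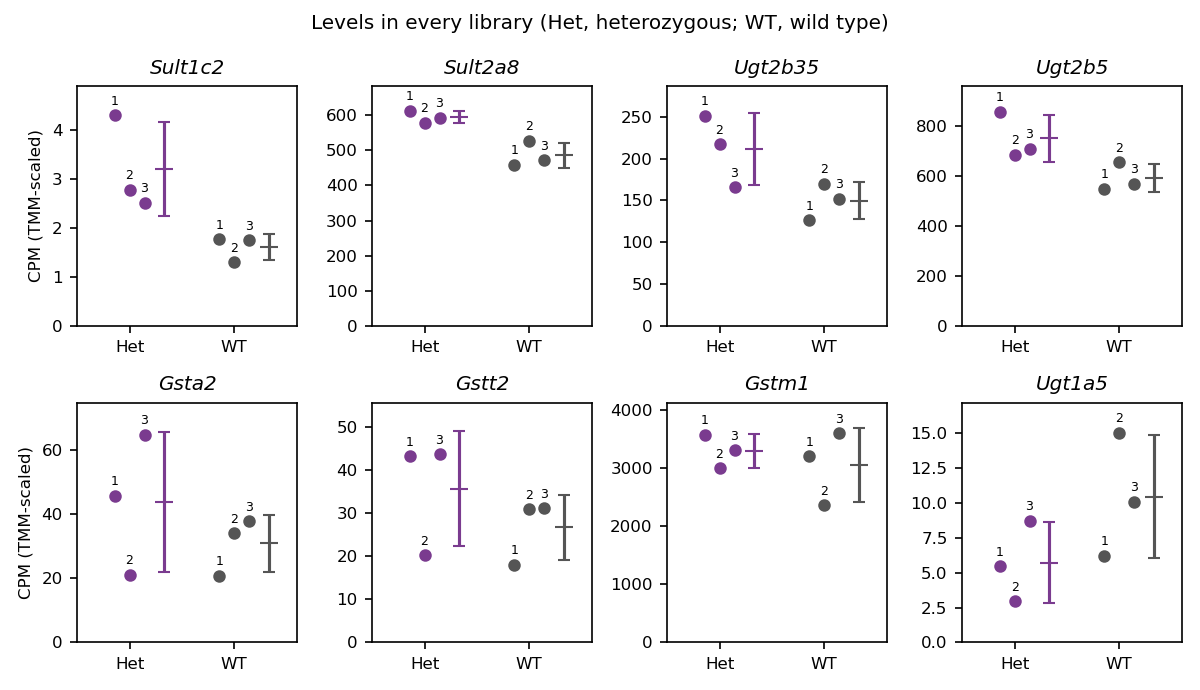
CPM (vertical axes, from 0) of 8 named members, heterozygous left of wild-type livers; each numbered point is a library, and the bar is the mean with SD (n = 3). Sult1c2, Sult2a8 and Ugt2b5 have all heterozygous points above the wild-type ones, whereas the points of Ugt2b35, Gsta2, Gstt2, Gstm1 and Ugt1a5 overlap between groups.

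Of the Ugt1a genes, Ugt1a1, the enzyme that conjugates bilirubin, had 244, 216 and 207 CPM in heterozygous livers and 169, 254 and 216 CPM in wild-type livers, which overlap. Ugt1a5 was the member with the most negative value, with 5.47, 2.97 and 8.72 CPM in heterozygous livers and 6.22, 15.0 and 10.1 CPM in wild-type livers. Its log2 fold change was −0.87 ± 0.45 (edgeR, adjusted p = 0.496), the groups overlapped, and 36.9% of its transcript windows are unique. Ugt1a6a, Ugt1a6b and Ugt1a7c, whose products act on planar phenols, gave a summed log2 fold change of 0.09 ± 0.14 (edgeR, adjusted p = 0.873). Ugt3a1 and Ugt3a2, relatives that in humans use other UDP sugars, had log2 fold changes of 0.18 and 0.11.

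Sulfotransferases were the least abundant group, and the 17 genes included 10 below the filter. Sult2a8, a liver enzyme that in mice sulfates bile acids, supplied most of the sulfotransferase counts. It had 613, 579 and 593 CPM in heterozygous livers, all above the 459, 527 and 472 CPM of wild-type livers. The difference was 0.29 ± 0.11 on the log2 scale (1.22-fold; 95% interval 0.04 to 0.54), with an unadjusted p of 0.0276 and an adjusted p of 0.292 by edgeR.

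Sult1c2 had the largest positive difference of all members at a low level. Its values were 4.31, 2.79 and 2.52 CPM in heterozygous livers, from 74, 46 and 44 counts, and 1.77, 1.31 and 1.75 CPM in wild-type livers, from 29, 24 and 32 counts. The groups did not overlap, with a log2 fold change of 0.99 ± 0.30 (1.99-fold; 95% interval 0.31 to 1.68; unadjusted p = 0.00945, adjusted p = 0.173 by edgeR), the smallest p among the members.

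The other sulfotransferases overlapped between groups. Sult1a1, which sulfates phenols, had 158, 153 and 211 CPM in heterozygous livers and 273, 188 and 143 CPM in wild-type livers (−0.21 ± 0.24; edgeR, adjusted p = 0.806). Sult1d1, which in mice sulfates catecholamines, had 64.9, 58.6 and 67.8 CPM in heterozygous livers and 61.5, 97.8 and 66.1 CPM in wild-type livers (−0.24 ± 0.18; edgeR, adjusted p = 0.660). Wild-type library 2 alone stood high in Sult1d1. Sult1b1, which sulfates thyroid hormones, averaged 16.4 CPM in heterozygous and 16.9 CPM in wild-type livers, and Sult5a1 had 9.58 to 18.5 CPM and 8.15 to 18.1 CPM.

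The 15 untested members were at or near the limit of counting. Sult2a3, Sult2a4, Sult2a5 and Sult3a2 had no count in any library, which allows up to 3 counts, or 0.163 to 0.183 CPM, in a library. Sult2a1, Sult2a2, Sult2b1 and Sult3a1 had 2 or 3 counts over all 6 libraries. Sult2a1 and Sult3a1 are known as female-predominant in mouse liver. Sult1e1, which sulfates oestrogens, had 5 counts over heterozygous and 10 counts over wild-type libraries. Gsto2, Gstt4, Sult4a1, Ugt1a2, Ugt1a7c and Ugt1a10 had between 1 and 23 counts over the 6 libraries, and no difference was detectable at this depth.

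The enzymes that feed or clear these reactions were described from lists. Of 8 tested genes for glutathione supply none passed edgeR (median log2 fold change 0.12). This list also holds Chac1, which degrades glutathione (−0.32). Gclc, the catalytic subunit of the first and rate-limiting step of glutathione synthesis, had 696, 473 and 495 CPM in heterozygous livers, all above the 209, 316 and 350 CPM of wild-type livers (0.93 ± 0.22; edgeR, adjusted p = 0.106). Its partner subunit Gclm had 163, 163 and 147 CPM in heterozygous livers and 116, 128 and 133 CPM in wild-type livers (0.33 ± 0.11; adjusted p = 0.210 by edgeR). Both were higher in every heterozygous library, without passing the test.

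None of 4 genes listed for UDP-glucuronate supply passed (median 0.21). That list also holds Gusb, which cleaves glucuronides and was its only negative gene (−0.16). Slc35d1, which carries UDP-glucuronate into the endoplasmic reticulum, had 148, 121 and 136 CPM in heterozygous livers and 115, 109 and 111 CPM in wild-type livers (0.28 ± 0.11 on the log2 scale). None of 7 genes for PAPS supply and turnover, among them the sulfatase Sts, passed (median −0.01). All 7 transporters of conjugates, 5 exporters and the uptake carriers Slco1a4 and Slco1b2, had positive differences (median 0.36), and again none passed. Abcc2, the pump that moves glutathione and glucuronide conjugates into bile, had 394, 347 and 316 CPM in heterozygous livers, all above the 238, 286 and 233 CPM of wild-type livers (0.48 ± 0.13; edgeR, adjusted p = 0.139). Among 13 other conjugating enzymes none passed (median 0.13, with 10 positive and 3 negative). Hpgds and Nat8 had the smallest p of this list. Hpgds, at a low level, had 0.932, 1.45 and 1.66 CPM in heterozygous livers, all below the 2.38, 2.99 and 2.19 CPM of wild-type livers (−0.90 ± 0.31; edgeR, adjusted p = 0.237). Nat8 differed in the other direction, with overlapping groups (0.61 ± 0.22; edgeR, adjusted p = 0.266). Mgst1, a microsomal glutathione transferase outside the families chosen here, averaged 3823 CPM in heterozygous and 3611 CPM in wild-type livers.

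The known regulators of these families include NRF2, CAR, PXR and the aryl hydrocarbon receptor. None of 16 tested regulator genes passed edgeR (median −0.04), nor did any of 11 NRF2 targets outside the families (median 0.02), 7 CAR and PXR targets (median −0.21) or 4 aryl hydrocarbon receptor targets (median −0.12). Members of these lists stood on both sides of 0. The NRF2 target list and its median leave out Gclc and Gclm, which were counted under glutathione supply. As given above, both were higher in every heterozygous library without passing the test. The NRF2 target G6pdx, which supplies NADPH, had 6.52, 6.30 and 8.60 CPM in heterozygous livers and 11.2, 17.5 and 16.5 CPM in wild-type livers (−1.08 ± 0.21; edgeR, adjusted p = 0.0561). Aox1, an aldehyde oxidase also driven by NRF2, had 203, 134 and 165 CPM in heterozygous livers and 90.9, 137 and 110.2 CPM in wild-type livers (0.57 ± 0.19). Por, the electron donor of cytochromes P450, had 231, 311 and 310.1 CPM in heterozygous livers, all below the 605, 489 and 440.2 CPM of wild-type livers (−0.85 ± 0.17; edgeR, adjusted p = 0.0561). Cyp2c55, next to Por in p among the CAR and PXR targets, went the other way. It had 6.46, 4.54 and 6.54 CPM in heterozygous livers and 2.07, 3.48 and 2.90 CPM in wild-type livers (1.05 ± 0.26; edgeR, adjusted p = 0.109). Of these 7 targets, 3 were positive and 4 negative.

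Other lists gave no call by edgeR apart from the macrophage genes above (3 of 10 fell, median −1.22). Medians were 0.17 over 10 male-biased liver genes, with Hsd3b5 at 241, 210.2 and 126 CPM in heterozygous livers and 78.7, 96.4 and 75.4 CPM in wild-type livers (1.20 ± 0.24; edgeR, adjusted p = 0.0688). Only 4 of 12 female-biased genes were tested (median 0.97, all at low counts). Pericentral hepatocyte genes (10) had a median of 0.02, periportal ones (11) −0.14, acute phase genes (15) −0.68 and hepatocyte markers (6) 0.01. Marker lists of other cells had medians of −0.51 for cholangiocytes, 0.29 for sinusoidal endothelium and −0.47 for stellate cells. Cela1, the single pancreatic marker tested, had 0.55, while Prss2 was at 0, and Cfd had −0.16. The part of macrophage and acute phase RNA in the values of the phase II genes was not tested.

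Promoter sequences were searched for the motifs of factors known to act on these families. Of the 57 members, 49 had an entry in the RefSeq promoter table of build GRCm38.p6 (60 promoters, from 250 bases before to 50 after the start), and both strands were searched. A 10-letter core of the HNF1 site, with any base allowed at the seventh letter, was found in 7 of the 60 promoters (11.7%), against 0.4% of all 32851 promoters in the table. These belonged to Ugt1a1, Ugt1a9, Ugt1a10, Sult1d1, Sult2a3, Sult2a4 and Sult2a5. Several are close relatives, so the promoters are not independent: Ugt1a9 and Ugt1a10 share 95.4% of coding bases, and Sult2a3 and Sult2a4 94.4%. Sult2a3, Sult2a4 and Sult2a5 had no count in any library. The antioxidant response element core TGACNNNGC stood in 5.0% of member promoters and 12.4% of all, the xenobiotic response element core GCGTG in 20.0% and 32.4%, and the C/EBP palindrome TTGCGCAA in 0 of 60 and 0.18%. The C/EBP palindrome is so rare in all promoters that 0 of 60 cannot show whether members lack C/EBP sites. The letters of a motif are no evidence of binding. The 120 bases just before the start are given for the genes with tested counts, 5′ to 3′ on the gene's strand, with the HNF1 core of either strand in capitals.
Ugt1a9, chr1:88070659-88070778, plus strand: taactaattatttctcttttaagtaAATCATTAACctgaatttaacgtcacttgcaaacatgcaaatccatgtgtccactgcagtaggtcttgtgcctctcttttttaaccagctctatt
Ugt1a1, chr1:88211839-88211958, plus strand: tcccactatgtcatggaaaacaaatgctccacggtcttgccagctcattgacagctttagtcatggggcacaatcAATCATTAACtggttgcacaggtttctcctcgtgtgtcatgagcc
Sult1d1, chr5:87569007-87569126, minus strand: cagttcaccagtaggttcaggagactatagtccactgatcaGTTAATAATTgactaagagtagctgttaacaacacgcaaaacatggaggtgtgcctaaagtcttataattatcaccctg

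HNF1 factors are hepatocyte regulators. The genes with this core did not share a direction: Ugt1a1 had a log2 fold change of 0.06 ± 0.16, Ugt1a9 of 0.21 ± 0.39 and Sult1d1 of −0.24 ± 0.18, and none passed edgeR.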

How the data were processed

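RNA was extracted in TRIzol from whole liver of 6 samples and sequenced from stranded mRNA libraries, according to the labels. The deposited values are raw counts of reads per gene symbol in 6 columns, made by the authors with Trimmomatic 0.36, HISAT2 2.2.1.0 and HTSeq 0.9.1 on GRCm39, per the submitters' processing notes. The sources used here do not give the annotation or strand setting, so antisense partners and close copies are uncertain.

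In R 4.3.3, edgeR 4.0.16 (filterByExpr by group, TMM, robust glmQLFit and glmQLFTest, no covariate) was fitted to all genes, with Benjamini-Hochberg adjustment over 12706 genes at 0.05; the procedure was tested on simulated data. CPM are TMM-scaled, ± after a log2 fold change is its SE, and 95% intervals use the t distribution. Alternatives included DESeq2 1.42.0 and limma 3.58.1 (voom). Nothing in the labels says that replicate numbers pair the libraries, so they were not taken to do so. Deviations of same-numbered libraries from their group means correlated at r = −0.21, −0.31 and 0.19. With 3 libraries per group, centred on their own mean, these values cannot show whether libraries were paired. No pair of libraries agreed within sampling noise. TMM factors were 0.924 to 1.041.

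Members and the 22 lists were chosen with earlier results of these data known. Named were Cebpb and Clec4f, members past the threshold, the 6 smallest p and the 4 highest counts per superfamily, their close copies, and up to 2 genes with the smallest p per list plus any past the threshold, of which those nearest to phase II conjugation are printed. Gsta4, Gstk1, Ugt1a1, the Ugt3a genes, Mgst1 and Prss2 are named for their role and not by this rule. Close copies and exon lengths came from GENCODE M21 and promoters from RefSeq, both of GRCm38, an older build than that of the counts. No protein table was used here.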

Additional observations from a re-analysis of the deposited data

How the results depend on the processing

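No member was called in any of 16 alternatives, and the smallest adjusted p among members ranged from 0.0948 (Ugt2b35 without heterozygous library 3, by edgeR) to 0.573. The count of all genes called, 74 in the fit reported, was 37 with upper-quartile scaling, 211 without a filter on low counts, 48 at 1 CPM or more in 3 samples, 20 with a non-robust fit, 525 with DESeq2, 46 with limma-voom, and 4 when wild-type library 1 and heterozygous library 2 were left out together. With the replicate number as a block the count of all genes called was 0 (1427 genes at an unadjusted p under 0.05), and no call of a member changed under the block. Without single libraries the count was 0 to 122, being 0 without heterozygous library 1 or 2, 122 without heterozygous library 3, and 4, 6 and 20 without wild-type libraries 1 to 3. The Sult median was −0.17 to 0.22 without single libraries and 0.17 in the joint leave-out. In that leave-out Sult1a1 (0.17), Sult5a1 (0.11) and Ugt2b38 (−0.080) changed sign without being called. Signs also changed with single libraries left out, where log2 fold changes were −0.70 to 0.016 for Cebpb, −0.043 to 0.24 for Gstm1, −0.084 to 0.12 for Gstz1, −0.34 to 0.0052 for Sult1d1, −0.40 to 0.091 for Sult1a1, −0.17 to 0.22 for Sult1b1, −0.37 to 0.27 for Sult5a1, −0.57 to 0.60 for Gsta1, −0.51 to 0.12 for Gstp2 and −0.18 to 0.39 for Ugt2b38. Without a change of sign they moved by over 1.5 times in Gsta2 (0.11 to 0.84), Gsta3 (0.046 to 0.33), Gstm4 (0.15 to 0.37), Gstm5 (0.14 to 0.31), Gstp1 (0.039 to 0.33), Gstt1 (0.020 to 0.44), Gstt2 (0.22 to 0.70), Ugt1a5 (−1.30 to −0.50) and Ugt2b1 (0.044 to 0.45), and the Gst median was 0.010 to 0.22. Clec4f passed with DESeq2 (−2.80, adjusted p = 0.0228) and without wild-type library 3 (−3.31, adjusted p = 0.000607, edgeR). The causes were not tested. Close copies were to be grouped by protein identity; this was not run, and coding sequences were used instead, a choice made after seeing the data. Depth limits the 15 members below the filter.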
